A study of Mus musculus with 3 samples.

Results

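The input DNA of mouse embryonic fibroblasts (MEF), fragmented chromatin that was sequenced without an antibody, was examined as a map of where chromatin broke. The members were 12023 clusters of 5′ ends, chosen by their input tag counts alone. A tag is a uniquely mapped read counted at its 5′ end, at most 1 for each position and strand, and a cluster is a tag position with 8 or more tags in the 300 bp centred on it and the highest count within 300 bp. They came from 3920580 input tags on chromosomes 1 to 19 of the mm9 build. The series held 3 libraries, 1 for each condition: input DNA from wild-type MEF, NFI ChIP from wild-type MEF, and NFI ChIP from NFI-C knock-out MEF. All cells were labelled strain C57BL/6, came from embryos of 14.5 days and were used at passages 6 to 7. The description line of the knock-out sample calls it wild-type, and its title was followed here. The labels give the same preparation for all 3 samples: formaldehyde cross-linking, sonication to an average of 1000 bp, gel selection from 50 to 400 bp and 18 cycles of PCR, and the input was marked as having no antibody. As no condition had a replicate, no test between conditions was possible, and every interval given covers counting error only.

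DNA that has been cross-linked to its proteins and sonicated does not break evenly. Nucleosomes and other bound proteins shield DNA, while promoters of CpG-rich genes hold a stretch with few stable nucleosomes at the transcription start site (TSS). A TSS of this kind usually lies in a CpG island, a stretch of high GC content in which CpG dinucleotides have not been lost to methylation, and its flanks carry trimethylated lysine 4 of histone H3 (H3K4me3). Trimethylated lysine 27 (H3K27me3) marks genes held silent by Polycomb proteins, and trimethylated lysine 36 (H3K36me3) marks transcribed gene bodies. An input library also carries the base preferences of DNA breakage, adapter ligation and PCR, so that its tags record chromatin and chemistry together. The part of each in the results below was not tested.

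A few clusters are printed first to show their sequence. The 10 clusters of 29 tags that led those of under 30 tags within 1 kb of a TSS were used. From them, the longest stretch without an annotated exon was taken where it reached 40 bases, with each CpG in capitals. They are the plus strand of NCBIM37 (mm9), and show CpG-rich sequence at different densities. The Notch2 stretch is chr3:97817695-97817737, that of Rab2a chr4:8462718-8462790 and that of Megf9 chr4:70196030-70196201.
Notch2: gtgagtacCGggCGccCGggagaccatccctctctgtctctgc
Rab2a: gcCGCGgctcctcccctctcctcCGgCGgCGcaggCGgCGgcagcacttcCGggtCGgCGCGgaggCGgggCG
Megf9: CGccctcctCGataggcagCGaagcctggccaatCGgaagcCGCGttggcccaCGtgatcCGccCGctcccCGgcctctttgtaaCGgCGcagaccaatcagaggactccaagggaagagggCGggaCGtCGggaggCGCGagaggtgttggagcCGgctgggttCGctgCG
They held 3, 13 and 20 CpG, in the same order. Clusters far from any gene could look different. The 300 bases of the leading clusters of under 30 tags over 5 kb from a protein-coding TSS, chr2:181652169-181652468 with Polr3k as its nearest gene and chr11:3002759-3003058 with Sfi1, had a GC content of 39.0% and 36%, with 3 and 6 CpG.
Nearest Polr3k: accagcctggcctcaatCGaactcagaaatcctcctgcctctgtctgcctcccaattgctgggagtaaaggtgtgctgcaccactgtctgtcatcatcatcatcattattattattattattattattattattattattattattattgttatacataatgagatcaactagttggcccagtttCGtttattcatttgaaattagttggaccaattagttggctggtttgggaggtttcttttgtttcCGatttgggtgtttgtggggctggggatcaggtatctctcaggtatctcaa
Nearest Sfi1: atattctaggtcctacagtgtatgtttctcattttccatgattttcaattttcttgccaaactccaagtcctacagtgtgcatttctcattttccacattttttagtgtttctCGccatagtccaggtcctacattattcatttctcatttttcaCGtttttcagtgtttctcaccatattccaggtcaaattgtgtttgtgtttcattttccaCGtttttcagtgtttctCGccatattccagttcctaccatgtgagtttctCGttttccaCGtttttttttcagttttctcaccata
The cluster with the most tags of all, chr17:39981003-39981302, was printed after its values were seen. It lay 364401 bp from its nearest protein-coding TSS, that of Pgk2, with 72.7% GC and 37 CpG in 300 bases.
Nearest Pgk2: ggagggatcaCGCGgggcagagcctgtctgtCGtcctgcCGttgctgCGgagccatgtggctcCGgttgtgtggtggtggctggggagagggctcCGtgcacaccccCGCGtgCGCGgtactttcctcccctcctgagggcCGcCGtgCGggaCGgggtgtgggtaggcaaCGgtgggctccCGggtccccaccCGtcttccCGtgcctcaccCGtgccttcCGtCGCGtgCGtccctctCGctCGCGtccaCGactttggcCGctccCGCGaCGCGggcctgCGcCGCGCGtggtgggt

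The input library held 12029975 reads, of which 45.1% were uniquely mapped, 26.0% matched several places and 28.5% matched none. Both ChIP libraries had more unique reads, 68.1% in the wild-type and 66.3% in the knock-out, but fewer distinct tags, 3186944 and 2978316. The input was the least duplicated of the 3, with 1.32 reads for each tag against 2.91 and 3.46. Its genome average was 0.476 tags in 300 bp, so that 8 tags are far above it. Tag counts given for the 3 libraries side by side are not scaled for these totals.

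The 5′ ends of 1 fragment lie its length apart on opposite strands, but pairs of tags from different fragments in dense places are counted too. In the input, pairs of a forward and a reverse tag were most frequent 181 bp apart, at 2.52 times their frequency at 800 to 1000 bp. The wild-type ChIP had its maximum at 147 bp and 7.16 times, and the knock-out ChIP at 169 bp and 8.51 times. The input maximum was thus lower and broader than both others. Between 400 and 500 bp, past the gel range, the input still had 1.42 times that frequency and both ChIP libraries 1.08 times. Below 100 bp the input again stood higher, at 1.82 times for 50 to 100 bp where the ChIP libraries had 1.11 and 1.17. Outside the clusters the input had 1.15 times at 400 to 500 bp and 1.36 times at 50 to 100 bp, with its maximum of 1.63 times at 177 bp.

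**Figure D1:**
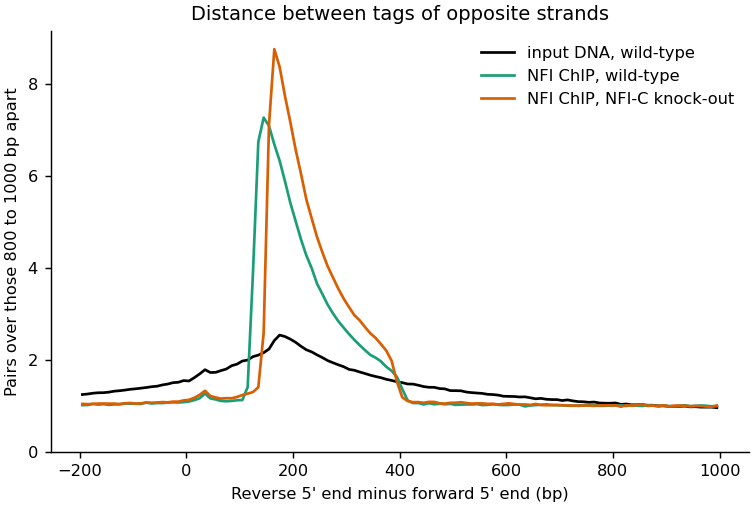
Pairs of tags on opposite strands by the distance from the forward to the reverse 5′ end (bp, bins of 10 bp), over their frequency 800 to 1000 bp apart, with a line for each of the 3 libraries. The input (black) has a low, broad maximum near 181 bp and tails to both sides, while the ChIP libraries rise steeply and return to the background close to 400 bp.

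The bases around each 5′ end were read from the genome to describe where the sequenced fragments began. In the input the base before the first read base was G in 29.5% of tags, against 22.5% in the wild-type and 22.9% in the knock-out ChIP. The steps GA, GC and GT across the 5′ end had 1.37, 1.40 and 1.38 times their frequency 20 to 40 bp away, and TG had 0.736 times (95% interval 0.733 to 0.739). The step GC was also favoured in the ChIP libraries, with 1.33 times in each, but GA had only 1.05 and 1.07 times there. The excess of 5′ ends after G was hence larger in the input than in both ChIP libraries. In the clusters these preferences were smaller, with 1.14 for GA, 1.13 for GC and 1.17 for GT. The CG step, the methylated dinucleotide of mammalian DNA, lay across the 5′ end of 1.34% of input tags, 0.827 times (0.820 to 0.834) its share of 1.62% 20 to 40 bp away. It had 0.853 times (0.841 to 0.866) in the clusters, 0.878 times in the wild-type ChIP and 0.977 times in the knock-out ChIP. The steps beside the 5′ end varied as well. A CG whose C was the first read base had 0.916 times, 1 base further in 0.862 times, and a CG that ended just before the 5′ end 1.13 times in the input. In the clusters these were 0.991, 0.825 and 1.03 times. In each of the 3 libraries CG was thus less frequent across the 5′ end than 20 to 40 bp away. In the input this was not limited to the step across the 5′ end.

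The clusters were small in extent. They covered 0.146% of the bases of chromosomes 1 to 19 and held 4.47% of the input tags, a share that the choice of clusters raises. Tags of the ChIP libraries, which took no part in that choice, fell in the same windows in 0.458% (0.451 to 0.466%) of cases in the wild-type and 0.559% (0.551 to 0.568%) in the knock-out. The median cluster had 13 tags and the highest had 562, with 11872 clusters of under 30 tags and 151 of 30 or more. Clusters of 30 or more tags, among which some loci held very many reads, were also set apart. When neighbours within 1 kb were joined, 10201 groups remained, of which 8670 held 1 cluster and the largest held 14. Chromosome 11 was densest with 9.30 clusters per Mb and chromosome 14 lowest with 3.35. At the threshold, 1370 clusters had 8 tags and 69.6% of them lay within 1 kb of a TSS, while 61.4% of the 1652 positions of 7 tags did. The median GC content was 67% just inside and 65.3% just outside.

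The labels give 3 flow cell channels for each sample, while 2 input runs can be told apart by read name, which were taken as repeats of the sequencing of 1 library. Clusters were called on 1 run with the threshold scaled to its tags, and the tags of the other run at positions not yet seen were counted there. At 16018 clusters called on run 1, without the highest ones, run 2 had 14.5 times its genome average (14.4 to 14.6). At 12673 clusters called on run 2, run 1 had 23.7 times (23.5 to 23.9). A tag of the other run was present at 86.0% and 90.6% of all clusters called. Places called on either run were thus high in the other.

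Most clusters lay at promoters. Of the 12023 clusters, 9925 or 82.6% (81.9 to 83.2%) lay within 1 kb of a TSS of protein-coding genes, and 64.9% lay within 300 bp. The bases within 1 kb of a TSS made up 3.08% of the genome and held 9.96% of all input tags, 4.19% of wild-type and 4.42% of knock-out ChIP tags. Among clusters within 1 kb, 6530 lay downstream of the TSS and 3352 upstream, with a median 58 bp downstream. In all, 54.2% were in an exon of a gene of any kind and 76.0% in a protein-coding gene. No share of bases or of tags was computed beside either. The share within 1 kb was 69.6% among clusters of 8 tags, 82.5% at 10 to 14 tags and 89.3% at 15 to 29 tags, then 74.7% (64.5 to 83.3%) at 30 to 49 tags, 32.1% (15.9 to 52.4%) at 50 to 99 and 28.1% (13.7 to 46.7%) at 100 or more. The share was therefore highest between 15 and 29 tags and lowest from 50 tags up. Clusters of 30 or more tags gather at few loci, with 57 of the 151 in 5 bins of 1 Mb. Their intervals, which take them as independent, hence understate the spread, and no comparison with the share of bases is drawn from them.

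The clusters were GC-rich and CpG-rich. Their median GC content in 300 bp was 70.3% (quartiles 66.7 and 74.0%), against 43.7% around all input tags, 41.7% around wild-type and 42.0% around knock-out ChIP tags, and 41.7% in windows of the genome. Only 0.988% of genomic windows reached 60% GC. The median cluster held 32 CpG and had 0.884 times the number that its C and G content would give by chance pairing, which is the range of CpG islands. A GC content under 50% was found in 279 clusters or 2.32%, and 72 of these had 30 or more tags.

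Over all windows of 300 bp, without those of 30 or more input tags, the input followed GC content steeply. It had 0.796 times its average at 35 to 40% GC, 1.00 times at 45 to 50%, 3.39 times at 60 to 65%, 10.2 times at 65 to 70%, 19.1 times (19 to 19.3) at 70 to 75% and 19.7 times at 75 to 80%. The wild-type ChIP had 1.08 times at 65 to 70% and 1.07 times (1.03 to 1.10) at 70 to 75%, and the knock-out ChIP had 1.38 and 1.54 times. At 80 to 85% GC the input had 15.9 times its average, whereas the ChIP libraries had 0.467 and 0.518 times. Among the 3 libraries the steep dependence on GC content was thus found in the input, at differences far above the counting error.

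**Figure D2:**
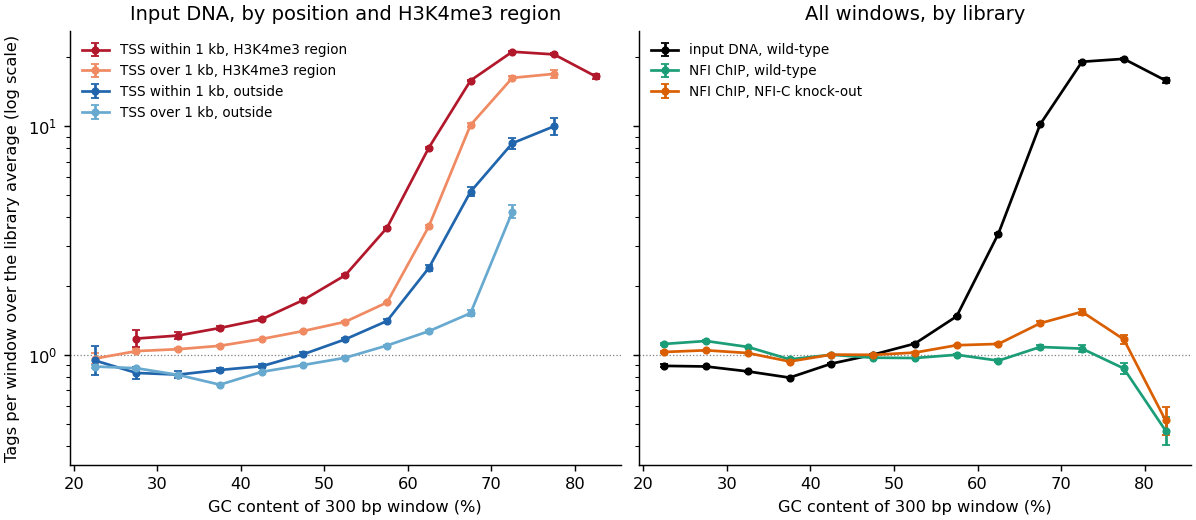
Tags per 300 bp window over the library average (log scale) by GC content of the window (%), left for the input by distance to a TSS and H3K4me3-rich region and right for all windows in the 3 libraries; points are bins of 5%, bars 95% counting intervals, and windows of 30 or more input tags were left out. Above 60% GC the input rises to about 20 times its average, most in windows near a TSS in an H3K4me3-rich region, while the ChIP libraries stay between 0.467 and 1.54 times.

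Windows near and far from a TSS were compared at equal GC content. Those within 1 kb of a TSS had 1.71 times (1.69 to 1.72) the input tags of windows farther away, and 1.83 times without windows of 30 or more tags. Among windows of 60% GC or more, again without those of 30 or more tags, the ratio was 2.15 (2.12 to 2.18). Over all windows, matching for CpG number as well as GC content gave 1.34 in place of 1.71. The ChIP libraries had ratios of 1.40 each over all windows, and 2.01 (1.94 to 2.08) and 1.99 (1.93 to 2.06) at 60% GC or more. At equal GC content the input thus had the highest ratio for nearness to a TSS in both sets of windows. At 60% GC or more its interval lay just above those of the ChIP libraries. The ratio matched for CpG number as well was not computed for the ChIP libraries. The input ratio of 1.34 cannot be ranked against the ChIP ratios of 1.40, which were matched for GC content alone. Whether the input would stay highest with CpG number matched as well was not tested.

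Windows at 65 to 70% GC show this in numbers. In an H3K4me3-rich region within 1 kb of a TSS the input had 15.8 times its average, and in such a region farther away 10.1 times. Outside these regions it had 5.17 times near a TSS and 1.52 times (1.48 to 1.57) farther away. In the same order the wild-type ChIP had 1.58, 1.25, 0.645 and 0.228 times, and the knock-out ChIP had 2.04, 1.49, 0.812 and 0.293 times. All 3 libraries had the same order of these 4 kinds of window, at very different levels. The GC-rich windows outside H3K4me3-rich regions and over 1 kb from a TSS were low in both ChIP libraries. How much of each kind of window a unique read can reach was not measured.

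Histone marks were compared next, with the deposited boundaries of rich regions in MEF chromatin from another study. These regions are broad, with a median length of 17.2 kb for H3K4me3 and 39.3 kb for H3K27me3. H3K4me3-rich regions covered 19.3% of the bases, 31.7% of the input tags and 96.0% (95.6 to 96.3%) of the clusters. They held 27.1% of wild-type and 27.5% of knock-out ChIP tags. H3K27me3-rich regions covered 39.7% of the bases, 51.4% of the input tags and 88.6% of the clusters. Both marks together took in 85.9% of the clusters, H3K4me3 alone 10.1%, H3K27me3 alone 2.69% and neither 1.34%. Clusters were hence almost always in an H3K4me3-rich region, yet only 46.6% of the 15370 such regions held one.

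Both marks were also compared at equal GC content. At equal GC content and over 1 kb from a TSS, without windows of 30 or more tags, the input had 1.45 times the tags inside H3K4me3-rich regions that it had outside, and the ChIP libraries 1.5 and 1.49 times. Within 1 kb of a TSS the ratio was 2.36 (2.32 to 2.41) in the input, 1.82 (1.79 to 1.85) in the wild-type and 1.85 (1.81 to 1.88) in the knock-out ChIP. Matched for CpG number as well, the input ratio near a TSS was 2.04 (2.00 to 2.08) and those of the ChIP libraries were 1.83 and 1.87. For H3K27me3 the input ratios at equal GC content were 1.32 over 1 kb from a TSS and 1.23 within 1 kb. The wild-type and knock-out ChIP had 1.29 and 1.31 over 1 kb away, and 1.28 and 1.29 within 1 kb, above the input. Inside H3K4me3-rich regions the input ratios were 1.04 and 1.05. The ChIP libraries had 0.999 and 1.02 there over 1 kb from a TSS, and 1.10 each within 1 kb. The converse, H3K4me3 inside H3K27me3-rich regions, was not tested.

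The 324 clusters in an H3K27me3-rich region alone were lower, with a median of 9 tags, and 42.0% of them lay within 1 kb of a TSS. The leading ones of under 30 tags were a cluster in an intron 241539 bp from the TSS of Ccdc3 with 25 input, 2 wild-type and 5 knock-out tags and one 1985 bp upstream of Hrh2, a histamine receptor gene, with 20, 0 and 1 tags. The next lay 14214 bp upstream of Dspp, a gene of tooth dentin, and had 19, 10 and 11 tags. It held no CpG and a GC content of 36%, against 48.0% at the Ccdc3 and 49.3% at the Hrh2 cluster. The median GC content of the 324 clusters was 68.0%. The Dspp cluster was the only one of these 3 with more than 5 tags in each ChIP library. The Ccdc3 cluster had 21 forward and 4 reverse tags.

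H3K36me3-rich regions held 56.1% of the clusters, 28.8% of the input tags and 19.7% of the bases. Domains bound to the nuclear lamina, mapped in human fibroblasts and carried over to the mouse genome by the authors, held 10.9% of the clusters, 34.1% of the input tags and 38.3% of the bases. The clusters were therefore sparse in lamina domains, although 49.1% of the 1177 domains held one. At CpG-rich promoters inside a lamina domain 71.2% (68.4 to 73.9%) of genes had a cluster, against 77.0% of all genes with such a promoter.

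Seen from the genes, 8996 of 21418 protein-coding genes, or 42%, had a cluster within 1 kb of a TSS, which is the background for every gene count below. The median gene had 9 input tags within 1 kb of its outermost TSS, where the genome average gives 3.17. Promoters were called CpG-rich where the 500 bp around the outermost TSS had 55% GC or more and a CpG ratio of 0.6 or more, intermediate where they missed this but had a ratio of 0.4 or more, and CpG-poor at a ratio under 0.4. A cluster was present at 77.0% (76.2 to 77.8%) of 9727 genes with a CpG-rich, 27.2% of 3528 with an intermediate and 6.70% of 8163 with a CpG-poor promoter. Clusters were thus most frequent at genes with a CpG-rich promoter. Class, GC content and the histone mark used below were read at the outermost TSS, while a cluster at any TSS of the gene counted. With the outermost TSS alone 39.2% of all genes had a cluster in place of 42%. Some clusters counted here and below, also for promoters of low GC content, can therefore lie at another TSS. Shares by class for the outermost TSS alone were not computed.

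The histone mark divided each class further. With H3K4me3 at the TSS 79.0% (78.1 to 79.8%) of genes with a CpG-rich promoter had a cluster, and without it 27% (22.5 to 31.8%) of 367 did, at a median promoter GC content of 65.8 and 66.2%. H3K27me3 without H3K4me3 gave 33.3% of 243 genes and neither mark 14.5% of 124. Among CpG-poor promoters the shares were 20.9% with and 2.61% without H3K4me3. At a promoter GC content of 55 to 60% a cluster was present at 42.6% of genes with and 5.81% of genes without H3K4me3, and at 65 to 70% at 88.1% (86.8 to 89.3%) and 32.2% (24.0 to 41.3%). The intervals of promoters with and without H3K4me3 did not overlap in any of the 8 GC classes from 40 to 80%. Promoters with and without the mark also differed in CpG content within a GC class. Their median CpG ratios were 0.680 and 0.272 at 55 to 60% GC, and 0.838 and 0.688 at 65 to 70%. The CpG-rich genes with neither mark had a lower quartile of 0 input tags in 2 kb, and the reach of unique reads there was not measured.

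**Figure D3:**
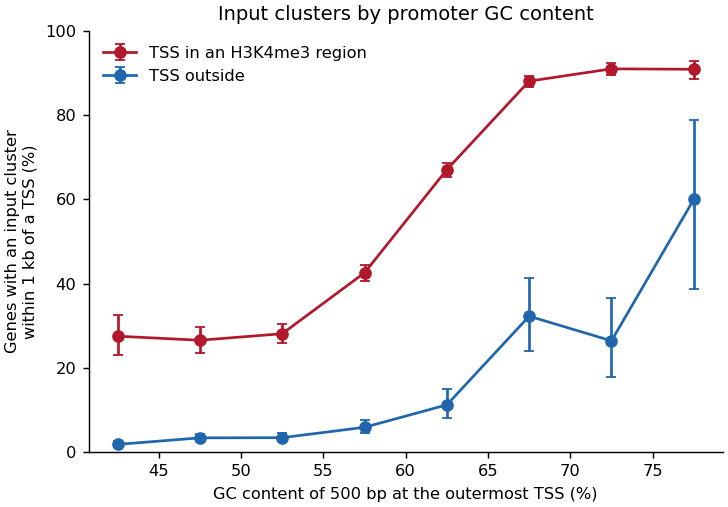
Share of protein-coding genes with an input cluster within 1 kb of a TSS (%), by GC content of the 500 bp around the outermost TSS (%), for a TSS inside (red) and outside (blue) an H3K4me3-rich region; bars are 95% binomial intervals. With the mark the share climbs from 27.5% at 40 to 45% GC to 91.1% at 70 to 75%, and without it the share is 1.74% at 40 to 45%, 26.4% at 70 to 75% and 60% (38.7 to 78.9%) at 75 to 80%. A cluster at any TSS of the gene counted, so it can lie away from the TSS whose GC content is shown.

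Around the TSS the input formed a narrow maximum. At the 9360 CpG-rich promoters with H3K4me3 it reached 20.7 times (20.5 to 21) the genome average in the 100 bp centred 50 bp downstream, from 1.29 times 2950 bp upstream. In that bin the wild-type ChIP had 1.82 and the knock-out ChIP 2.28 times their averages. Without H3K4me3 the input reached 7.94 times (7.23 to 8.70) at 150 bp downstream, where the ChIP libraries were below their averages, at 0.550 and 0.633 times. At intermediate promoters the maximum was 5.64 times at 350 bp downstream, and at CpG-poor promoters the highest bin had 1.43 times. The input maximum was thus steepest where a promoter was both CpG-rich and marked by H3K4me3, and it was present at CpG-rich promoters without the mark.

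**Figure D4:**
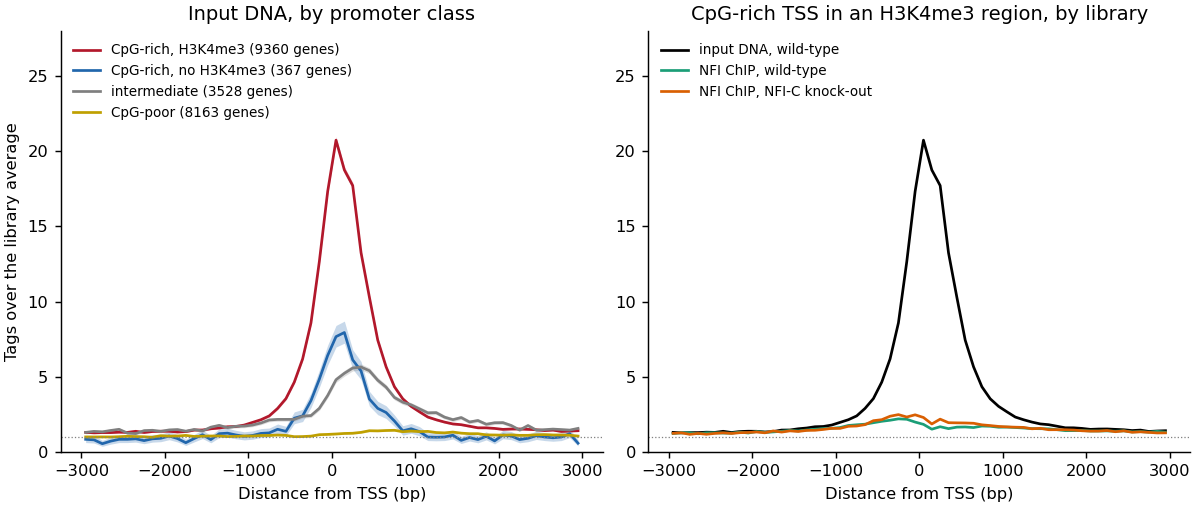
Tags in bins of 100 bp over the library average, by distance from the outermost TSS (bp), left for the input in 4 promoter classes and right for the 3 libraries at CpG-rich promoters in an H3K4me3-rich region; shading is the 95% counting interval. The input peaks at 20.7 times just past the TSS of CpG-rich promoters with H3K4me3, while the ChIP libraries remain near 2 times.

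Gene groups were chosen for what fibroblasts express or do not express, and a gene counted where any of its TSS had a cluster within 1 kb. Input tags are counts in the 2 kb around the outermost TSS. The background was 42% of all genes, and 79.0% of genes with a CpG-rich promoter in an H3K4me3-rich region. Cytosolic ribosomal proteins, which build the ribosome, had a cluster at 55 of 77 genes (71.4%, 60 to 81.2%), with Rpl19 at 23 and Rpsa at 21 tags in the highest cluster. Proteasome subunits, which degrade proteins, had one at 31 of 49 genes (63.3%, 48.3 to 76.6%), led by Psma3 with 23 tags, and subunits of the mitochondrial respiratory chain at 43 of 79 (54.4%, 42.8 to 65.7%), led by Atp5e with 26 tags. These 3 groups stood above the share of all genes, the last with an interval that begins just over it, but they also had more CpG-rich promoters (74.0, 83.7 and 65.8%, against 45.4% of all genes) and more promoters with H3K4me3 (97.4, 93.9 and 93.7%, against 64.2%). Genes of DNA replication and the cell cycle had one at 10 of 20 (27.2 to 72.8%), among them Ccna2, a cyclin, with 24 tags, and Rrm2, a subunit of ribonucleotide reductase, with 20. The share of the cell cycle genes could not be told from that of all genes at this number.

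Immediate early genes, which respond to growth signals within minutes, had the highest share, 16 of 20 genes (80%, 56.3 to 94.3%). The phosphatase gene Dusp1 had 51 input, 6 wild-type and 6 knock-out tags in 2 kb, and Junb, which encodes a subunit of the transcription factor AP-1, had 51, 6 and 5. Both genes, like those named from the other lists, were named for their input clusters, a choice that favours high input counts. Not all leading genes had such counts around the outermost TSS. Runx1, Runx2, Hoxa9 and Fbn1, with 26, 20, 19 and 18 tags in their highest clusters, had 5, 3, 5 and 4 input tags there. In the same order the wild-type ChIP had 0, 9, 3 and 2 tags and the knock-out ChIP 2, 4, 3 and 10. All 20 immediate early genes lay in an H3K4me3-rich region and 18 were CpG-rich. Mesenchymal transcription factors had a cluster at 14 of 22 genes (40.7 to 82.8%), with Runx1 at 26 tags and Twist2 at 16. Hox genes, which pattern the body axis, had one at 20 of 40, and Hoxb9 had 32 input, 4 wild-type and 2 knock-out tags. Fibroblast matrix genes had one at 6 of 20 (11.9 to 54.3%), although all 20 lay in an H3K4me3-rich region, and 3 were CpG-rich. Among them, Fn1 (fibronectin) had 31 input, 8 wild-type and 8 knock-out tags and Col5a1, a collagen gene, had 35, 10 and 9. The median of this list was 7.5 input tags. The share of these matrix genes was below that of all genes in number, with an interval that holds it.

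Lists of genes of other cell types had lower shares in number. Liver genes had no cluster at 21 genes (exact upper limit 16.1%) and blood cell genes none at 18 (18.5%), with medians of 4 and 2.5 input tags, and neither list held a CpG-rich promoter. Neuronal genes had 4 of 18 (6.41 to 47.6%), all 4 listed as CpG-rich and marked by H3K4me3: Nefm with 10 tags, Grin1 and Slc32a1 with 9 each and Neurod2 with 8. Germ line genes had 4 of 19 (6.05 to 45.6%) although 11 were CpG-rich. Both of these intervals hold the background. Dazl, an RNA-binding protein of germ cells, had 14 tags in its cluster, Tdrd6 11, and Smc1b and the RNA helicase gene Ddx4 9 each, and of these Tdrd6 and Smc1b lay in an H3K4me3-rich region. Olfactory receptors had 1 of 1081, Olfr94. Replication-dependent histone genes had 8 of 67 (5.30 to 22.2%), at most 12 tags, while 59 lay in an H3K4me3-rich region. Families with similar copies, such as these histone and receptor genes, can lose reads that match several places, which was not measured, so their counts are uncertain. The histone genes had a median of 9 input tags, as had all genes. The olfactory receptors had 2, at a median GC content of 38.8% and with no CpG-rich promoter.

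The NFI genes, whose proteins the antibody recognises, had a cluster at 3 of 4. The highest cluster had 15 tags at Nfia, 13 at Nfic and 9 at Nfix, and Nfib had none. Around the outermost TSS, Nfic had 36 input, 2 wild-type and 2 knock-out tags, Nfix 32, 0 and 2, Nfia 9, 5 and 8, and Nfib 1, 6 and 5. The outermost TSS of Nfic and Nfix had 77.6 and 80% GC and those of Nfia and Nfib 41.4 and 47.8%. The input exceeded both ChIP libraries at the GC-rich pair by far, and was the lowest at Nfib.

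**Figure D5:**
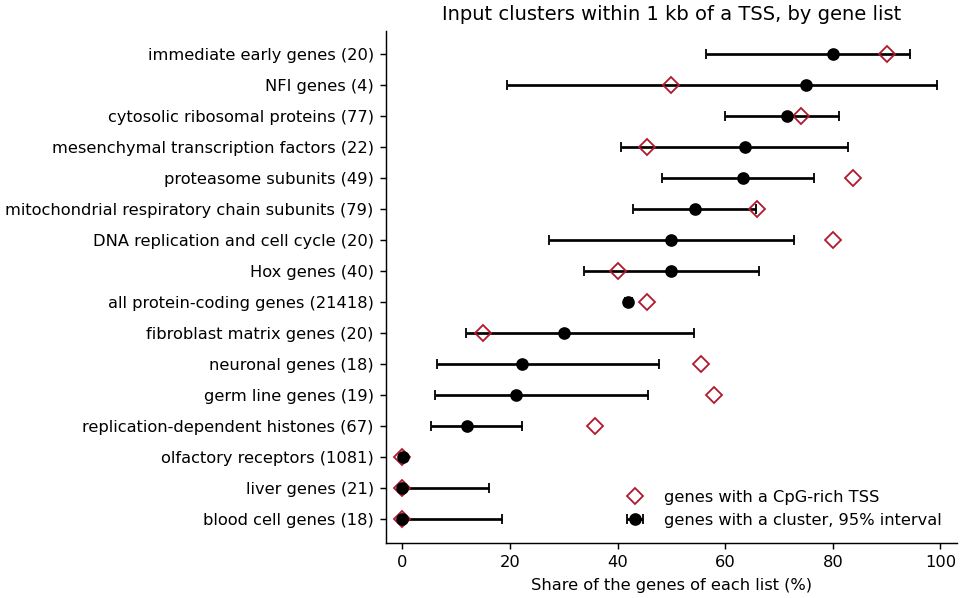
Share of genes in each list with an input cluster within 1 kb of a TSS (black, with 95% binomial interval) and share with a CpG-rich promoter at the outermost TSS (open diamonds), in %; the number of genes stands behind each name. Immediate early genes are highest at 80%, all genes stand at 42.0%, and liver and blood cell genes are at 0.

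Both ChIP libraries were far lower than the input at its clusters. Over all clusters the wild-type ChIP had 14609 tags and the knock-out ChIP 16649, against 175352 in the input, or 0.102 times (0.101 to 0.104) and 0.125 times (0.123 to 0.127) the input after scaling for library size. The input counts are raised by the choice of clusters, so these ratios describe the clusters and test nothing. They also depended on how reads were counted, with 0.229 and 0.249 when every read was counted, and 0.0674 and 0.0912 for clusters of reads without mismatch. Against their own genome averages the ChIP libraries had 3.13 and 3.82 times, and 2.01 and 2.58 times at clusters of under 30 tags. No wild-type tag was found at 57.4% of the clusters and no knock-out tag at 51.2%. The share of genomic windows without a tag was not computed, so no depletion against the genome can be read from these shares. Around clusters of under 30 tags near a TSS the wild-type ChIP had 1.73 times its average in the 50 bp just past the centre and 1.76 times about 975 bp away, and the knock-out ChIP 2.26 and 1.79 times. At clusters of under 30 tags over 5 kb from a TSS both were higher at the centre, with 5.64 against 1.94 times in the wild-type and 6.73 against 2.21 times in the knock-out. These are means over clusters, and a minority of clusters held all the wild-type tags. No wild-type tag was found at 55.4% of the distal clusters, close to the 58.2% of those near a TSS. The wild-type median was 0 in both. A knock-out tag was missing at 47.8% of the distal clusters and 52.0% of those near a TSS, with medians of 1 and 0.

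Among these clusters, which were chosen on their input tags, the ratio to the input differed by GC content, which is given as a description. At clusters of 70% GC or more the wild-type ChIP had 0.0401 times and the knock-out ChIP 0.0566 times the input. At 60 to 70% GC they had 0.0770 and 0.0978 times, at 50 to 60% 0.223 and 0.280 times, and under 50% GC 0.844 (0.818 to 0.870) and 0.924 (0.896 to 0.953) times. At the clusters under 50% GC each tag stood for 26.8 reads in the input and 26.3 in the wild-type ChIP, against 1.23 and 1.42 at 70% GC or more. Counting 1 tag per position limits the counts of both libraries at the former, so their ratio there is not a ratio of reads. Of the NFI sites deposited for the wild-type ChIP, 653 of 38625 on chromosomes 1 to 19 (1.69%) lay within 300 bp of a cluster, and 5.48% of the clusters had such a site. The share of bases within 300 bp of a cluster was not computed. The narrower cluster windows, which reach 150 bp to each side, covered 0.146% of the bases.

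The leading clusters of under 30 tags near genes were similar in GC content, CpG number and distance to the TSS. With 29 input tags each, they lay at Mars2, Phlda3, Camsap2, Lgr4, Ptpn1, Notch2, Wdr47, Rab2a, Bag1 and Megf9, on chromosomes 1 to 4, as ties were ordered by position. Their GC content ran from 67 to 77.7% and their CpG number from 37 to 48, all lay within 278 bp of the TSS and inside regions rich in both H3K4me3 and H3K27me3, and none in a lamina domain. They differed in H3K36me3, which Notch2, Rab2a and Megf9 lacked. The wild-type ChIP had 1 tag at Mars2 and Wdr47 and 0 at the other 8, and the knock-out ChIP had 4 at Phlda3, 2 at Wdr47 and Bag1 and at most 1 elsewhere. The input cluster of Notch2, a signalling receptor, lay 127 bp downstream of a TSS with 12 forward and 17 reverse tags, and that of Rab2a, a GTPase of membrane traffic, 77 bp downstream with 9 and 20. At Megf9, a membrane protein gene, it lay 23 bp upstream with 13 and 16, and both ChIP libraries had 0 tags there, as at Rab2a. In the printed stretches began 2 forward and 3 reverse tags at Notch2, 3 and 3 at Rab2a and 7 and 10 at Megf9.

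The 151 clusters of 30 or more tags were mixed. The 91 of 30 to 49 tags had a median GC content of 70.7%, like the smaller clusters, while the 28 of 50 to 99 and the 32 of 100 or more tags had 35.8 and 37.8%. They lay in 89 bins of 1 Mb, and 57 of the 151 were in the 5 bins with the most tags. Near 3.0 Mb of chromosome 9, 35 of them held 2624 input, 1989 wild-type and 2020 knock-out tags, with a GC content from 32.7 to 37.0%. The 5 from 98502955 to 98507139 of chromosome 2, beside the predicted genes Gm10800 and Gm10801, had 1238, 1088 and 1110 tags. All 3 libraries were thus high at these loci. The highest of all those within 1 kb of a TSS, 561 bp downstream of that of Gm10801, had 313 distinct tags from 82208 reads. Over all clusters of 30 or more tags the input had 21.7 reads for each tag and the wild-type ChIP 32.2, against 1.21 and 1.89 at the other clusters. Counting each position once limits the tag counts at such loci, so the ratios of 0.524 and 0.579 for the ChIP libraries over the input, summed over all 151 clusters, depend on it and on the few loci with the most tags. Copy number and repeats were not measured.

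A locus on chromosome 17, between 39980091 and 39985589, was GC-rich instead. Its 6 clusters, with a GC content from 59.3 to 72.7%, held 2512 input, 150 wild-type and 216 knock-out tags. The leading 4 had 562, 543, 527 and 522 input tags, 24 to 36 wild-type tags and 31 to 45 knock-out tags. The first had 278 forward and 284 reverse tags from 1994 reads. At most 1 tag per position and strand was counted in the 300 bp, so these input counts were near their limit. The near-equal strands follow from that limit. Unlike at the loci on chromosomes 2 and 9, the input had far more tags here than the ChIP libraries. As counting each position once limits the counts at all these loci, the contrast is not one of reads. The ChIP libraries were also far above their genome averages of 0.387 and 0.361 tags in 300 bp. At clusters of 70% GC or more they had only 1.29 and 1.81 times these averages. The first cluster, printed above, held 37 CpG in its window, as many as that of Megf9 and fewer than the 48 of Rab2a. The fifth cluster by tags, near 35.1 Mb of chromosome 9, 23507 bp from the TSS of Gm5614, had 362 input, 359 wild-type and 354 knock-out tags at 36.3% GC.

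Over 5 kb from any protein-coding TSS lay 1167 clusters of under 30 tags, of which 412 or 35.3% were inside a protein-coding gene, and 327 lay in an exon of a gene of any kind. They resembled promoters, with a median GC content of 67.3%, a CpG ratio of 0.802 and 11 tags, against 71.0%, 0.899 and 13 tags within 1 kb. H3K4me3-rich regions held 80.1% (77.7 to 82.4%) of them and H3K27me3-rich regions 80.4%, and 174 or 14.9% lay within 1 kb of the TSS of another annotated gene, among them 67 at lincRNA, 47 at processed transcripts, 33 at pseudogenes and 19 at miRNA genes. The leading ones were less uniform. The cluster nearest Polr3k had 29 input, 30 wild-type and 19 knock-out tags and that nearest Sfi1 29, 12 and 13, and these are the AT-rich stretches printed above. The cluster nearest Ggh had 28, 1 and 8 tags at 38.3% GC, and that nearest Smo had 28, 11 and 11 at 56.7%. The cluster nearest Gm15319 had 28, 1 and 2 at 67.7% GC with 28 CpG, 407 bp from the TSS of a processed transcript. Only this last one had the GC content of promoter clusters together with few ChIP tags.

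Short motifs were counted on both strands in windows of 300 bp, for clusters in those of under 30 tags. A GC box, GGGCGG, bound by the Sp1 family, was present in 74.9% (74.0 to 75.8%) of clusters within 1 kb of a TSS and 54.4% of those over 5 kb away, against 43.7% of all 21418 promoters (250 bp before to 50 bp after the TSS). At CpG-rich promoters it was present in 77.6% of those with a cluster and 68.0% of those without. The TATA box, TATAAA, was present in 1.67% of clusters near a TSS and 13.5% of all promoters, and the CCAAT box, CCAAT, in 19.5 and 37.6%. At CpG-rich promoters with and without a cluster the TATA box was present in 4.62 and 5.90% and the CCAAT box in 36.1 and 39.0%. The NFI motif TTGGCA, 1 arm of its palindrome, was found in 6.48% of clusters near a TSS and 13.2% of all promoters, and in 8.97% of CpG-rich promoters with a cluster and 10.3% without. The ETS motif CCGGAAG was in 12.3% of clusters near a TSS and 10.9% of promoters, the NRF1 core GCGCATGC in 3.32 and 3.35%, and the E box CACGTG in 8.31 and 7.78%. The GC box was thus more frequent in clusters near a TSS than in promoters, and TATA, CCAAT and TTGGCA were less frequent. Differences between CpG-rich promoters with and without a cluster were smaller. Cluster and promoter windows were placed differently and differed in GC content, and the part of either was not tested. The CCAAT box and TTGGCA can overlap, as the former reads ATTGG on the other strand.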

How the data were processed

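The authors sequenced NFI ChIP DNA from wild-type and NFI-C knock-out MEF and wild-type input DNA, and deposited ELAND alignments of each read to mm9 with up to 2 mismatches, together with boundaries of histone-rich and lamina regions and NFI sites. These deposited values are read positions and region coordinates, and no counts, scores or ratios of the authors were used. The aligner version was not given in the sources used here.

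From them, reads with a unique match were reduced to their 5′ ends, with 32 bases aligned, and to 1 tag per position and strand on chromosomes 1 to 19. Clusters, TSS (GENCODE M1) and GC content were computed with Python 3.11.15, NumPy 2.4.6, SciPy 1.17.1 and Numba 0.67.0, and plotted with matplotlib 3.10.9. The cluster search and ratios were tested on simulated data. Intervals are exact 95% binomial or Poisson intervals. Those of ratios at equal GC content take the log ratio as normal. PCR copies are not independent molecules. Depth is given by the 3920580 input, 3186944 wild-type and 2978316 knock-out tags.

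The members and gene lists were chosen with earlier results of these data known. Named were the 10 and 5 leading clusters within 1 kb of a TSS (under 30 tags, and 30 or more), the 5 leading ones over 5 kb away, the 5 leading of all, the 3 leading with H3K27me3 alone, the 4 NFI genes and up to 4 genes of each of the 15 lists. Sequences were to come from the first 4 clusters near a TSS, which lay in annotated exons, so the members with 40 or more bases outside exons were used instead, a choice made after seeing the data.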

Additional observations from a re-analysis of the deposited data

How the results depend on the processing

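The number of clusters stayed within 1.5 times the reported 12023 under every alternative. Shares that moved by more than their counting interval are given in the order of a threshold of 6 tags, 10 tags and every read counted. Clusters within 1 kb of a TSS made up 73.6, 85.3 and 66.3%, clusters in H3K4me3-rich regions 90.2, 97.5 and 84.2%, in H3K36me3-rich regions 53.5, 57.9 and 51.8% and in lamina domains 12.3, 10.1 and 14.1%. The median GC content was 68.7, 71.0 and 68.0% and the share of genes with a cluster 48.4, 35.6 and 46.4%. H3K27me3-rich regions held 86.1% at 6 tags and 82.9% with every read. The wild-type ChIP had 0.105 times the input at 6 tags and 0.229 with every read, and the knock-out ChIP 0.127 and 0.249. With 5′ ends shifted by 75 bp the values were 80.9% within 1 kb of a TSS, 94.8% in H3K4me3-rich regions, 44.4% of genes, and 0.0913 and 0.114 for the ChIP libraries. With reads without mismatch alone they were 84.2% within 1 kb, 96.9% in H3K4me3-rich, 57.6% in H3K36me3-rich regions, 10.3% in lamina domains, 39.1% of genes, and 0.0674 and 0.0912. Runs 1 and 2 alone, at thresholds of 4 and 5 tags, gave 69.2 and 76.4% within 1 kb, GC contents of 68.0 and 69.0%, 86.2 and 91.4% in H3K4me3-rich, 83.5 and 86.4% in H3K27me3-rich regions, 13.5 and 11.5% in lamina domains, 44.7 and 40.1% of genes, 0.0810 and 0.107 for the wild-type and 0.0975 and 0.130 for the knock-out ChIP, and run 1 gave 52.7% in H3K36me3-rich regions. The outermost TSS of each gene gave 73.5% of clusters and 39.2% of genes, TSS of all annotated genes 84.6%, and a distance of 5 kb 89.9%. GC content in 1000 bp was 63.6%, and overlap of the window by 1 bp gave 58.2% for H3K36me3. The density ratio at equal GC content was 1.67 with bins of 2%, 1.34 with CpG number, 2.44 with every read, 1.58 without tags in clusters and 1.65 within 300 bp. Without clusters of 30 or more tags the ChIP ratios were 0.0699 and 0.0899. The CG step had 0.815 outside clusters, 0.878 in the wild-type and 0.977 in the knock-out ChIP. The cause of these differences was not tested. Chosen after seeing the data, leaving out windows of 30 or more tags gave a density ratio of 1.83, and leaving out such clusters moved none of the 6 shares and medians so checked by more than their interval. No paired analysis was possible because each condition had 1 library. Depth limits each single cluster, as a count of 8 tags is imprecise, and the ratios of lists of about 20 genes.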
